A study of Homo sapiens with 28 samples.

Results

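The genes described here are 9 components of the protein synthesis machinery and companions whose mRNAs belong to the TOP class: EEF1A1 (ENSG00000156508), EEF2 (ENSG00000167658), EEF1B2 (ENSG00000114942), EEF1G (ENSG00000254772), EEF1D (ENSG00000104529), TPT1 (ENSG00000133112), PABPC1 (ENSG00000070756), NPM1 (ENSG00000181163) and RACK1 (ENSG00000204628). They were chosen by name and matched in the deposited count table by these Ensembl identifiers, with no measured value in the rule. Of the 9, 8 had reads of their own among the 34139 genes with such reads, and EEF1G had none. The data are nucleotide-recoding RNA sequencing of HEK 293T cells, an established human embryonic kidney line, labelled as wild type. Cells received 100 µM 4-thiouridine (s4U) for 2 h, or no s4U. Cells incorporate the nucleoside into new RNA, and chemical treatment of the isolated RNA makes it read as C, so that a new transcript is recognised by T-to-C mismatches.

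The 18 libraries analysed came from 3 conversion chemistries: iodoacetamide, NaIO4 and TFEA at pH 5.2, and OsO4 and NH3. Each chemistry was applied to RNA from drop-out handling and from improved handling, with 2 s4U libraries and 1 unlabelled library in each combination. This gave 6 s4U and 3 unlabelled libraries per handling. The series' design text contrasts commonly used protocols with ones meant to limit the loss of labelled RNA and of mismatch-bearing reads, and the labels do not say which steps differed. All groups share the wild-type line, the medium, the total-RNA extraction and the stranded low-input library kit. Nothing in the labels says that replicate libraries came from separate cultures, so the p-values measure the spread between these libraries, which may be technical.

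TOP mRNAs carry a 5′ terminal oligopyrimidine tract, a C at the cap followed by an unbroken run of pyrimidines. Their translation rises and falls together with nutrient and mTORC1 signalling, through LARP1 at the cap and the tract. The class holds the cytoplasmic ribosomal proteins and the elongation factors as well as several abundant RNA-binding proteins, and its mRNAs are known as abundant and stable in dividing cells.

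The tract is shown for the members with a RefSeq start site on GRCh38.p14, because it is the feature that places a gene in the class. Each line gives 10 bases before the annotated start and 20 bases from the start on, 5′ to 3′ on the gene's strand, and capitals mark the pyrimidine run that begins with C at the start.
EEF1A1 (chr6:73521013-73521042, minus strand): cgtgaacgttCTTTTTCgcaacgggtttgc
EEF2 (chr19:3985444-3985473, minus strand): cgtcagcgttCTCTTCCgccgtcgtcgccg
EEF1B2, the downstream of its 2 listed starts (chr2:206159885-206159914, plus strand): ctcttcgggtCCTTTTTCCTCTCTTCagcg
TPT1 (chr13:45341164-45341193, minus strand): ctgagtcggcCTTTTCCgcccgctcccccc
NPM1, the downstream of its 2 listed starts (chr5:171387839-171387868, plus strand): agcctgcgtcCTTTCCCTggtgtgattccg
RACK1 (chr5:181243887-181243916, minus strand): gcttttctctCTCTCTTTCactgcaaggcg
EEF1G (chr11:62573872-62573901, minus strand): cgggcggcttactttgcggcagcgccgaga

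A C at the annotated start followed by at least 4 pyrimidines was found at 6 of the 9 starts listed for the 7 members with an entry, and 6 of these 7 members had such a start. The run was 7 bases long in EEF1A1, EEF2 and TPT1, 8 in NPM1, 9 in RACK1 and 16 in EEF1B2. EEF1G had no such run at its annotated start, which says only that these letters are not at that position. Of all 35116 starts in the RefSeq table, 1429 had the run, or 4.07%. Of the 12 ribosomal protein genes of a companion list with an entry, 9 had it.

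Library depth ran from 1935777 to 9962345 reads in the HISAT-3N alignment, an aligner that tolerates T-to-C mismatches, of which 836654 to 4604325 were exonic reads of single genes. Between 17.5% and 41.5% of a library's reads were assigned to no gene. The intronic share of gene reads was 30.9% ± 3.29 (SD, n = 6) in s4U libraries of drop-out handling and 45.3% ± 3.72 (SD, n = 6) in those of improved handling, and the unlabelled libraries differed likewise (31.1% ± 4.00 and 46.0% ± 1.96, SD, n = 3 each). The part of this difference in composition in the members' values was not tested. A member's CPM is its exonic count over the TMM-scaled library total. It is a value relative to other exonic reads, though not a plain share of them, so that less of its RNA and more of other RNA cannot be told apart. The count table gives identifiers without symbols, so the cell line could be checked only in the authors' deposited table of rate constants. That table listed VIM and NEFM in 3 chemistries, NEFL in 2 and KRT18 in 1, while KRT8 and INA were absent from it. ALB, PTPRC, HBB, COL1A1 and CDH5, markers of other tissues, were absent too. The authors' deposited table lists only 1600 to 2262 transcripts per chemistry, so absence from it cannot check the cell line.

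The first question was how the amount of each mRNA recovered differed between the handlings. Any difference in culture or RNA preparation between the handlings cannot be told apart from handling itself. The members did not move together. With TMM scaling, EEF2, EEF1D and RACK1 fell under improved handling in s4U libraries by a factor of 3.45 to 4.35. EEF1A1, TPT1 and NPM1 rose by a factor of 2.02 to 2.67, EEF1B2 rose less, and PABPC1 did not pass the test. These sizes depend on the scaling, and with library totals alone the falls were smaller and the rises larger, as given below. Of the 8 members, 7 were called at an adjusted p under 0.05 (Benjamini-Hochberg over all genes tested, edgeR quasi-likelihood), 4 higher and 3 lower. The background was high: 80.6% of the 12449 genes tested were called, 46.7% as higher and 33.9% as lower. The 6 libraries of one handling lay wholly above or below the 6 of the other in 6 of the 8 members, and in 60.0% of all genes tested.

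EEF1A1 delivers aminoacyl-tRNA to the ribosome as a GTP-bound complex. Its exonic CPM values in the s4U libraries ran from 465 through a median of 573 to 742 under drop-out handling and from 1122 through 1140 to 1255 under improved handling. Every improved library lay above every drop-out library, and the means were 579 ± 97.8 and 1168 ± 58.1 (SD, n = 6 each). The log2 difference was 1.01 with a standard error of 0.12 (edgeR adjusted p = 4.59e-08), a rise of 2.02-fold.

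EEF1B2, EEF1D and EEF1G are the beta, delta and gamma subunits of the eEF1B complex, whose beta and delta subunits exchange GDP for GTP on eEF1A. The counts of EEF1B2 were spread widely under drop-out handling, from 119 through a median of 181 to 340 CPM, and ran from 235 through 256 to 355 under improved handling. The groups overlapped, and the log2 difference of 0.42 (standard error 0.18, edgeR adjusted p = 0.0358) lost its call when any of 10 of the 12 s4U libraries was left out. It was 0.13 without iodoacetamide drop-out replicate 1 and 0.19 without NaIO4 and TFEA drop-out replicate 1, and it turned to -0.27 (adjusted p = 0.239) when intronic reads were counted with exonic ones.

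EEF1D moved the other way. Its CPM values ran from 1148 through a median of 1340 to 1551 under drop-out handling and from 345 through 357 to 438 under improved handling, without overlap. The log2 difference was -1.83 with a standard error of 0.11 (edgeR adjusted p = 2.09e-12), or 3.57-fold lower.

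EEF1G, which anchors the complex, could not be counted on its own. All its 88031 exonic reads over the 18 libraries were listed jointly with a second gene identifier, ENSG00000255508, and so entered no gene test. Scaled like the other counts, these joint reads amounted to 5809 ± 840 CPM under drop-out handling and 1700 ± 109 under improved handling in s4U libraries (SD, n = 6 each). The drop-out libraries lay between 4781 and 6715 and the improved ones between 1557 and 1862, without overlap, and no test was run on them. In unlabelled libraries the values were 5423 ± 205 and 1626 ± 88.2 (SD, n = 3 each). For the other members, the share of exonic reads listed jointly with another gene was 7.91% for TPT1, 1.09% for EEF1B2, 0.581% for RACK1, 0.454% for PABPC1 and 0.00934% for EEF2, and 0 for EEF1A1, EEF1D and NPM1.

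EEF2 moves the ribosome along the mRNA by a codon after each peptide bond. Its exonic CPM values ran from 14803 through a median of 17892 to 21822 under drop-out handling and from 3908 through 4127 to 4543 under improved handling. The lowest drop-out library thus exceeded the highest improved one by a wide margin, and the log2 difference was -2.12 with a standard error of 0.10 (edgeR adjusted p = 1.48e-13), or 4.35-fold lower. EEF2 carried most of the net change in the joint share of exonic reads, taken without TMM scaling and without EEF1G. Among the other members, the falls of RACK1 and EEF1D were partly offset by rises. The 8 members held 2.33% ± 0.196 of exonic reads under drop-out handling and 1.29% ± 0.0451 under improved handling, and without EEF2 the shares were 0.875% ± 0.0278 and 0.801% ± 0.0293 (SD, n = 6 each).

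RACK1 is a scaffold protein of the small ribosomal subunit. Its CPM values ran from 5973 through a median of 6775 to 7716 under drop-out handling and from 1752 through 1964 to 2132 under improved handling. The groups did not overlap, and the log2 difference was -1.79 with a standard error of 0.09 (edgeR adjusted p = 1.22e-13), or 3.45-fold lower.

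PABPC1 binds the poly(A) tail and joins it to the initiation machinery. Its CPM values ran from 910 through a median of 1200 to 1461 under drop-out handling and from 1110 through 1202 to 1305 under improved handling. The ranges overlapped and the log2 difference was 0.01 (edgeR adjusted p = 0.953). This value depended on the scaling, since it was 0.55 (adjusted p = 0.000595) with library totals alone and -0.62 (adjusted p = 0.000153) when intronic reads were counted too.

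TPT1 encodes the translationally controlled tumor protein, a small and abundant growth-related protein. It gave 244 to 325 CPM under drop-out handling, with a median of 300, and 673 to 761 under improved handling, with a median of 728. All improved libraries lay above all drop-out ones, and the log2 difference was 1.31 with a standard error of 0.11 (edgeR adjusted p = 2.47e-10), a rise of 2.48-fold.

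NPM1 encodes nucleophosmin, a nucleolar chaperone of ribosome assembly. Its CPM values ran from 287 through a median of 381 to 467 under drop-out handling and from 879 through 959 to 1192 under improved handling. Again the groups did not overlap, and the log2 difference was 1.42 with a standard error of 0.12 (edgeR adjusted p = 8.09e-10), a rise of 2.67-fold.

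**Figure D1:**
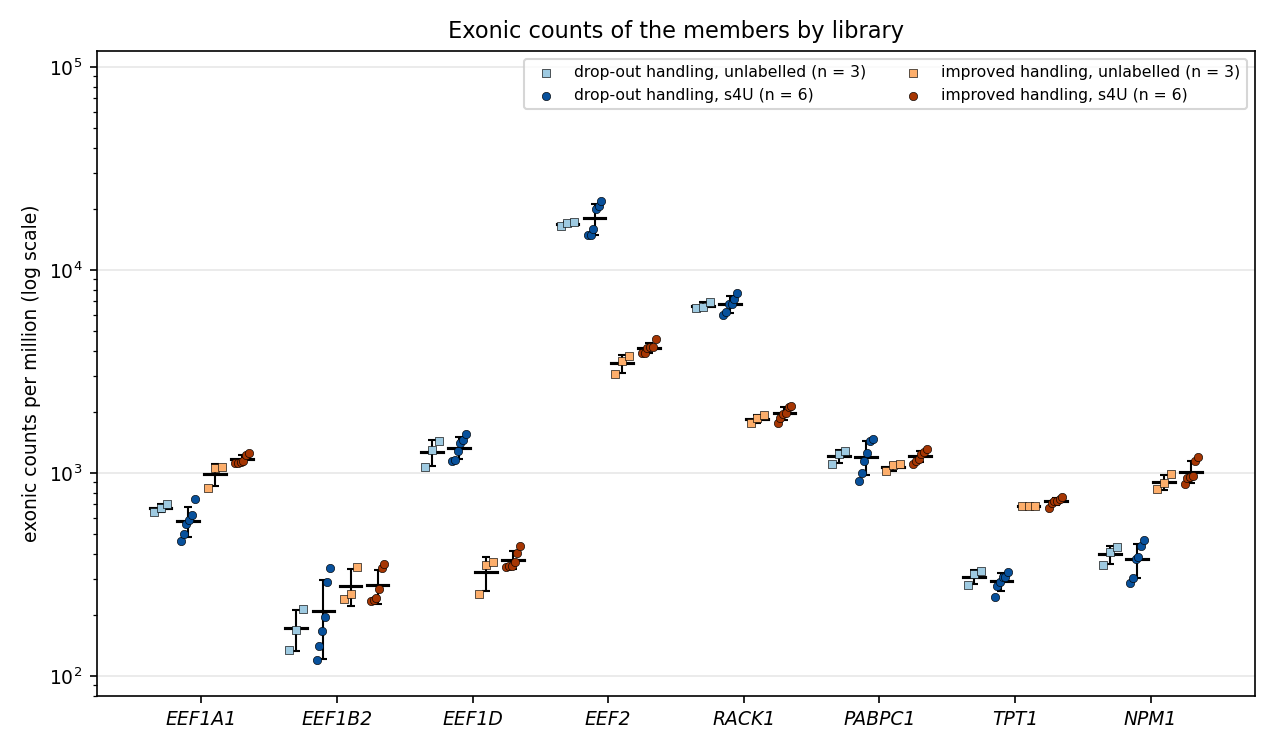
Exonic CPM on a log axis for the 8 members with reads of their own, by handling and label. Each point is a library, and the line and bar show the mean and SD of 6 s4U or 3 unlabelled libraries. EEF2, EEF1D and RACK1 lie lower under improved handling, EEF1A1, TPT1 and NPM1 higher, and the s4U groups of EEF1B2 and PABPC1 overlap.

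The direction of these values has to be read against the table as a whole. The median log2 difference of all 12449 genes was 0.44, or 0.995 with library totals alone and 0.59 with intronic reads included. With library totals alone, 6991 genes were called higher and 3031 lower, against 5813 and 4220 with TMM scaling. On library totals the log2 differences were -1.56 for EEF2, -1.27 for EEF1D and -1.23 for RACK1. They were 1.57 for EEF1A1, 1.86 for TPT1, 1.97 for NPM1 and 0.99 for EEF1B2. The positions that follow are with TMM scaling. Relative to the median, EEF2 stood at -2.56, EEF1D at -2.27 and RACK1 at -2.23, TPT1 at 0.87, NPM1 at 0.98 and EEF1A1 at 0.57. EEF1B2 stood at -0.02 and PABPC1 at -0.43. With intronic reads included, the position relative to the median was -0.27 for EEF1A1, 0.04 for TPT1 and 0.21 for NPM1, so that the higher members no longer stood clear of it, while EEF2, RACK1 and EEF1D stood at -3.40, -3.07 and -2.94.

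Among the 1992 genes with at least 50 exonic reads in every s4U library, the picture was different. Their median log2 difference was -1.07, with 13.5% called higher and 73.8% called lower. In this set NPM1 stood at the 97.9th percentile of the difference, TPT1 at the 97.2nd, EEF1A1 at the 94.9th, EEF1B2 at the 88.1st and PABPC1 at the 81.3rd. EEF1D stood at the 18.3rd percentile and EEF2 at the 8.63rd, with RACK1 just above EEF1D. EEF1A1, TPT1 and NPM1 were thus among the upper values of this set, and the 3 lower members were below the median of genes that were mostly lower themselves. The set was filtered on the same counts that are compared, so positions in it depend in part on the filter. Over all 12449 genes the quartiles of the difference were -1.05 and 1.85. EEF1A1, TPT1 and NPM1 lay between these quartiles, and EEF2, EEF1D and RACK1 lay below the lower one.

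The number of T positions per exonic read was the base-composition measure the table allowed. In drop-out s4U libraries it was 43.6 for EEF1A1, 41.3 for NPM1, 38.1 for PABPC1, 37.6 for EEF1B2, 35.7 for RACK1, 34.6 for TPT1, 29.5 for EEF2 and 26.5 for EEF1D, against a median of 32.4 for the 1992 genes. These genes share libraries, depth and read length. Across them, the T positions per read and the handling difference in s4U libraries had a Spearman rho of 0.451. Their median log2 difference was -1.58 in the fifth of genes with the fewest T positions and -0.20 in the fifth with the most. Over the 8 members rho was 0.667, and RACK1 and TPT1, with nearly equal T positions per read, differed in direction. For the handling difference in unlabelled libraries, against the same T positions, rho was 0.390 over the 1992 genes and 0.595 over the 8 members. In the same groups of genes, the unlabelled median log2 difference was -1.48 with the fewest T positions and -0.29 with the most. The part of base composition in the members' differences was not tested.

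The unlabelled libraries showed the same division of the members without s4U. EEF2 went from 16907 ± 362 to 3461 ± 357 CPM, EEF1D from 1267 ± 186 to 323 ± 60.6 and RACK1 from 6652 ± 279 to 1847 ± 82.9 (SD, n = 3 each). TPT1 went from 308 ± 25.9 to 686 ± 1.79, NPM1 from 398 ± 40.8 to 905 ± 77.8, EEF1A1 from 672 ± 33.4 to 987 ± 125 and EEF1B2 from 172 ± 39.3 to 278 ± 56.5 CPM. In each of these 7 members the 3 libraries of one handling lay wholly above the 3 of the other, and so did those of PABPC1, at 1208 ± 92.2 and 1070 ± 44.3. Over all genes tested, 76.6% were separated in this way, 43.4% with improved handling above and 33.2% with it below.

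By the test, 7 of the 8 members were called among unlabelled libraries, 4 higher and 3 lower, where 72.1% of genes were called, 41.4% higher and 30.7% lower. The log2 differences were -2.29 for EEF2, -1.98 for EEF1D and -1.85 for RACK1, with standard errors of 0.12 to 0.15 (edgeR adjusted p of at most 9.91e-10). They were 1.19 for NPM1 (adjusted p = 3.51e-06), 1.16 for TPT1 (6.63e-07), 0.70 for EEF1B2 (0.0179) and 0.55 for EEF1A1 (0.00454, edgeR). PABPC1 was not called at -0.17 (edgeR adjusted p = 0.335), and this too depended on the scaling. It was 0.27 (edgeR adjusted p = 0.176) with library totals alone and was called lower, at -0.79 (edgeR adjusted p = 0.000519), with intronic reads included. Each unlabelled group held 1 library and added no residual spread to the fit over all 18. The standard errors and p-values of this contrast thus rest on the spread within the pairs of s4U libraries. The calls of EEF1A1 and EEF1B2 were the less secure. EEF1A1 was not called without the drop-out unlabelled library of OsO4 and NH3 (0.43, adjusted p = 0.0511) or of iodoacetamide (0.41, adjusted p = 0.0629), and was at -0.11 with intronic reads included. EEF1B2 was not called when any of 5 of the 6 unlabelled libraries was left out, nor with intronic reads included (0.05, edgeR adjusted p = 0.898).

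**Figure D2:**
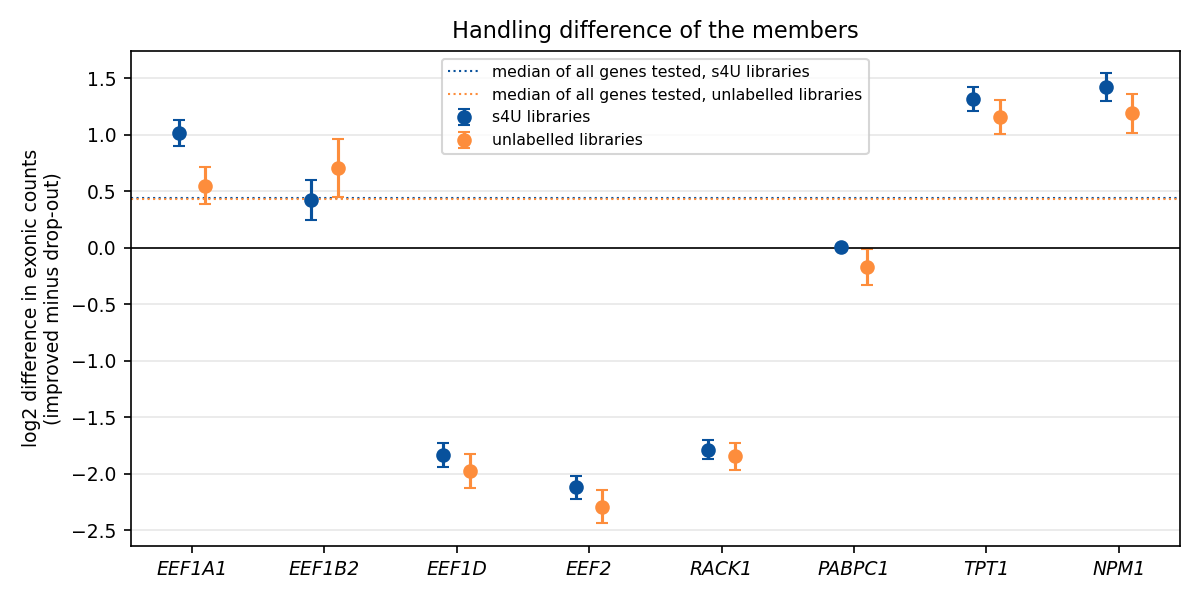
Log2 difference in exonic counts, improved minus drop-out handling, from the edgeR fit, with standard errors as bars. s4U libraries are blue and unlabelled ones orange, and dotted lines mark the medians of all genes tested, 0.44 and 0.43. The s4U point of PABPC1, at 0.01, has no bar because errors from a test statistic this close to 0 were left out. EEF2, EEF1D and RACK1 lie near -2 in both kinds of library, and TPT1 and NPM1 above 1.

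In 6 of the 8 members the handling difference had the same direction in each chemistry and was called in each. Within NaIO4 and TFEA, OsO4 and NH3, and iodoacetamide, the same 6 of 8 members were called, 3 higher and 3 lower. In the same order, 63.1%, 62.8% and 63.5% of all genes were called, with 36.1%, 35.8% and 36.5% of genes higher and 27.0%, 27.1% and 27.0% lower. EEF2 gave log2 differences of -2.11, -2.14 and -2.10 in that order (edgeR adjusted p = 9.96e-09, 9.05e-09 and 9.87e-09). NPM1 gave 1.63, 1.36 and 1.27, TPT1 gave 1.49, 1.20 and 1.24, and EEF1A1 lay between 0.98 and 1.06. RACK1 lay between -1.82 and -1.77 and EEF1D between -1.91 and -1.75. EEF1B2 was not called in any chemistry, at 0.61, 0.61 and 0.04 (edgeR adjusted p = 0.0858, 0.0968 and 0.923), nor was PABPC1, at 0.08, 0.06 and -0.11. A test of whether the handling difference varied with the chemistry called none of the 8 members and 0.0% of all genes, and the lowest unadjusted p among the members was 0.334, for EEF1B2. With 2 s4U libraries in each combination, that test could not show that the differences were equal.

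The second question was whether the presence of s4U changed the recovered amount of the members. Under drop-out handling no member was called, the log2 differences of s4U against unlabelled libraries were -0.21 for EEF1A1, -0.08 for TPT1, -0.07 for NPM1, -0.01 for PABPC1, 0.02 for RACK1, 0.08 for EEF1D, 0.09 for EEF2 and 0.29 for EEF1B2, and 0.217% of genes were called (0.12% higher, 0.0964% lower). Under improved handling no member was called either, with differences of 0.01 for EEF1B2, 0.08 for TPT1, 0.09 for RACK1, 0.16 for NPM1, 0.17 for PABPC1, 0.22 for EEF1D, 0.25 for EEF1A1 and 0.26 for EEF2, and 0.225% of genes called (0.177% higher, 0.0482% lower). In 3 members every s4U library lay above every unlabelled one under improved handling, which also held for 2.67% of all genes, while 5.82% had every s4U library below. The CPM ranges were 844 to 1066 in unlabelled and 1122 to 1255 in s4U libraries for EEF1A1, 3069 to 3766 and 3908 to 4543 for EEF2, and 1019 to 1101 and 1110 to 1305 for PABPC1. The other 5 members overlapped there, and all 8 did under drop-out handling, where 4.85% of all genes did not. All 8 differences were above 0 under improved handling, where the median of all genes tested was -0.03. That of EEF1B2 ran from -0.23 to 0.19 over the alternatives. EEF2 had the lowest unadjusted p, 0.0444 (edgeR adjusted p = 0.667). With standard errors of 0.10 to 0.23, small changes were not detectable, and the 95% interval of EEF1A1 ran from -0.49 to 0.06 under drop-out handling and from -0.02 to 0.52 under improved handling. The difference between the 2 label effects was called for no member, 0.0% of genes passed, and the unadjusted edgeR p was under 0.05 in 914 genes, while DESeq2 gave 3 calls. EEF1A1 had the largest such difference among the members, 0.46 (unadjusted p = 0.028, edgeR adjusted p = 0.655). It was -0.28 for EEF1B2, 0.06 for RACK1, 0.14 for EEF1D, 0.16 for TPT1, 0.17 for EEF2, 0.18 for PABPC1 and 0.23 for NPM1.

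The third question was how much of each mRNA carried the label. The converted share is the percentage of a gene's exonic reads that carry 1 or more T-to-C mismatches, and its background comes from the unlabelled libraries. The share rose with improved handling in EEF1D, RACK1, NPM1, PABPC1 and EEF2, and did not pass the test in EEF1A1, EEF1B2 and TPT1. That made 5 of 8 members called, all higher, where 82.0% of the 1992 genes tested were called higher and 0.0% lower. The median converted share of those genes was 10.6% under drop-out and 21.5% under improved handling. In the HISAT-3N alignment the members stood low in that range under improved handling. They ran from the 1.2th percentile for EEF1A1 to the 9.19th for EEF1D, with NPM1 apart at the 29.1st. Under drop-out handling they were spread more widely, from EEF1D at the 1.51st percentile through RACK1 at the 5.27th, EEF2 at the 8.43rd, PABPC1 at the 13.6th, EEF1A1 at the 17.8th, NPM1 at the 45.7th and EEF1B2 at the 47.4th to TPT1 at the 60.0th.

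The converted share depends on the number of new reads, on the T positions per read and on the mismatch rate of new reads. Estimated over all exonic reads, that rate was 5.41% ± 1.16 per T under drop-out handling and 7.32% ± 1.58 under improved handling (SD, n = 6 each), and its part in the rise was not tested. Under drop-out handling replicate 1 had the higher converted share of all exonic reads in each chemistry, at 15.1% against 10.4% for NaIO4 and TFEA, 17.4% against 12.5% for OsO4 and NH3, and 15.9% against 11.1% for iodoacetamide. Same-numbered drop-out libraries thus deviated together, and an SD over 6 of them takes them as separate. With a random block per handling and replicate number the same 5 members were called, at 0.59 for EEF2, 0.69 for PABPC1, 0.74 for NPM1, 0.99 for RACK1 and 1.54 for EEF1D (limma adjusted p of at most 0.0107), where 1378 of 1992 genes were called.

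EEF1D had 2.89% to 5.04% converted reads under drop-out handling, with a median of 4.25%, and 8.97% to 13.4% under improved handling, with a median of 10.2%. The groups were well apart, and the unlabelled means were 2.87% ± 1.23 and 2.62% ± 0.516 (SD, n = 3 each), and under drop-out handling the s4U and unlabelled libraries of EEF1D overlapped. The log2 odds ratio was 1.51 with a standard error of 0.20 (edgeR adjusted p = 1.29e-09). RACK1 ran from 4.00% through a median of 4.90% to 5.94% under drop-out handling and from 7.16% through 9.21% to 10.5% under improved handling, also without overlap. Its log2 odds ratio was 0.95 with a standard error of 0.15 (edgeR adjusted p = 1.46e-07).

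EEF2 rose less, from 4.54% to 6.65% (median 5.25%) under drop-out handling to 6.97% to 9.25% (median 7.45%) under improved handling, against unlabelled means of 3.55% ± 0.345 and 3.98% ± 1.25 (SD, n = 3 each). The groups did not overlap, and the log2 odds ratio was 0.55 with a standard error of 0.14 (edgeR adjusted p = 0.000374). PABPC1 ran from 3.74% through 6.61% to 7.58% and from 8.28% through 9.19% to 10.3%, with a log2 odds ratio of 0.70 (standard error 0.18, edgeR adjusted p = 0.000459). With HISAT-3N, NPM1 had the highest converted share of the members under improved handling, 12.9% to 21.0% with a median of 15.6%. Under drop-out handling it had 4.83% to 12.6% with a median of 10.9%. Its log2 odds ratio was 0.77 (standard error 0.20, edgeR adjusted p = 0.000553), and its lowest improved library lay just above its highest drop-out one.

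In the remaining 3 members the handlings overlapped. TPT1 ran from 8.30% through 13.1% to 14.9% under drop-out handling and from 9.52% through 10.2% to 11.5% under improved handling, and its log2 odds ratio was -0.25 with a 95% interval of -0.67 to 0.17 (edgeR adjusted p = 0.272). EEF1B2 had means of 10.2% ± 3.86 and 9.70% ± 1.46, and EEF1A1 had means of 6.64% ± 2.26 and 6.25% ± 0.917 (SD, n = 6 each). The 2 NaIO4 and TFEA drop-out libraries of EEF1A1 gave its highest and lowest values, 10.1% and 3.25%. The interval of its log2 odds ratio was -0.49 to 0.36, which lies below the median of 1.09 over the 1992 genes, and TPT1, EEF1A1 and EEF1B2 stood at the 0.502th, 1.61th and 2.16th percentiles of the ratio. Their drop-out values rested on 107 to 1189 exonic reads per library.

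Set against the unlabelled libraries, all 8 members had every improved s4U library above every improved unlabelled library, as did 96.7% of the 1992 genes. Under drop-out handling that held for 3 of the 8 members, and 5 overlapped, against 76.3% of the 1992 genes that were separated. Between the handlings, the s4U libraries were separated in 5 members and in 43.5% of these genes, all with improved handling above. The unlabelled converted shares overlapped between handlings in all 8 members, where 13.0% of the 1992 genes were separated, with means from 2.56% to 5.20% under drop-out handling and from 2.05% to 5.00% under improved handling.

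**Figure D3:**
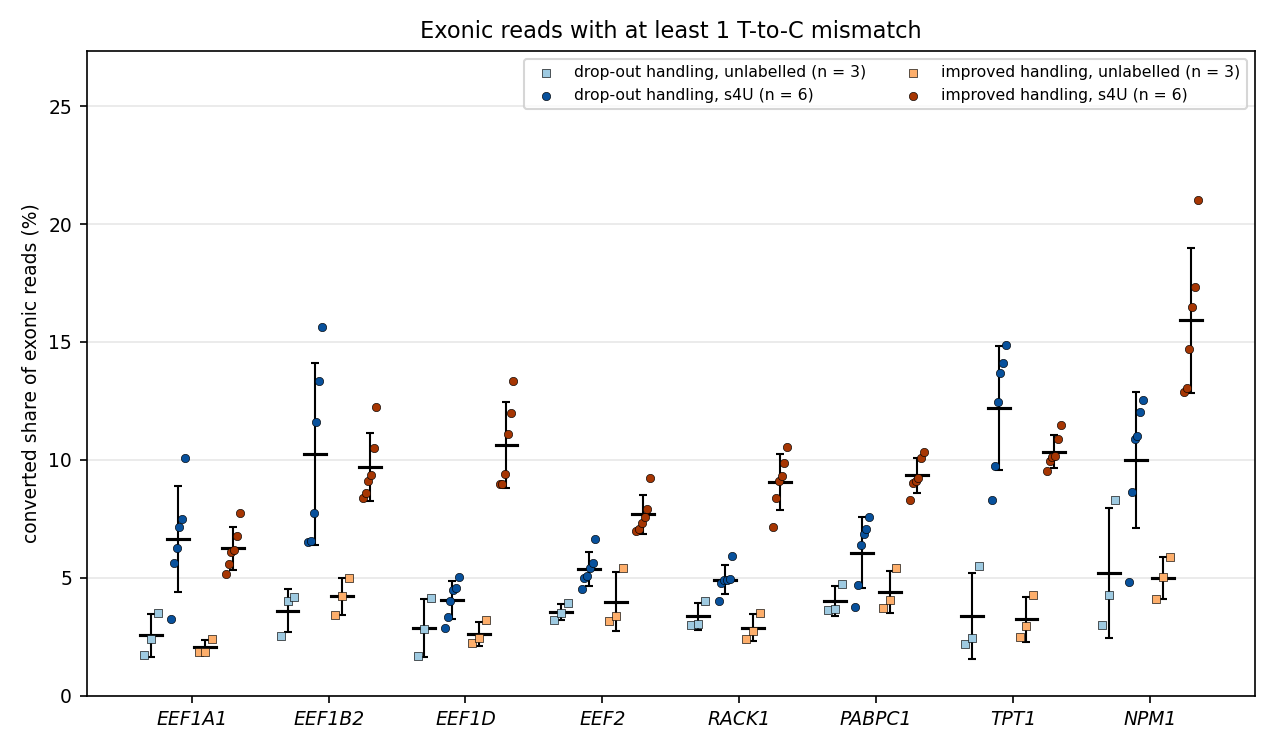
Percentage of exonic reads that carry 1 or more T-to-C mismatches, by member, handling and label. Each point is a library, and the line and bar show the mean and SD of 6 s4U or 3 unlabelled libraries. In EEF1D, EEF2, RACK1, PABPC1 and NPM1 the improved s4U libraries lie above the drop-out ones, and in EEF1A1, EEF1B2 and TPT1 they overlap.

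Within improved handling the chemistries were compared pairwise for the converted share, with 2 s4U libraries each. No member was called in any of the 3 comparisons, and 0.0% of the 1992 genes were called in each, while 80, 76 and 41 genes had an unadjusted edgeR p under 0.05. For OsO4 and NH3 against iodoacetamide the log2 odds ratios were -0.15 for EEF2, -0.09 for EEF1D, 0.07 for RACK1, 0.15 for TPT1, 0.25 for PABPC1, 0.38 for EEF1A1, 0.39 for EEF1B2 and 0.45 for NPM1. For OsO4 and NH3 against NaIO4 and TFEA they were 0.06 for TPT1, 0.11 for EEF1D, 0.12 for EEF2, 0.17 for PABPC1, 0.33 for EEF1A1, 0.39 for RACK1, 0.40 for EEF1B2 and 0.57 for NPM1, with a 95% interval of -0.04 to 1.18 for the last. NPM1 was called in this comparison, at 0.54 (limma adjusted p = 0.013), when libraries of one handling and replicate number were given a shared random block. That fit called 1.51% of the genes. Within improved handling the counts of same-numbered libraries did not deviate together (r of 0.04 to 0.06 over genes). For NaIO4 and TFEA against iodoacetamide the log2 odds ratios were -0.31 for RACK1, -0.27 for EEF2, -0.20 for EEF1D, -0.12 for NPM1, -0.01 for EEF1B2, 0.04 for EEF1A1, 0.08 for PABPC1 and 0.09 for TPT1. Standard errors were 0.24 to 0.42, so that differences in odds of this size between chemistries were not detectable by the edgeR fit with 2 libraries each.

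Intronic reads can come from unspliced RNA and from RNAs encoded in introns, and the part of each in the members' reads was not tested. Of the 8 members, 6 passed the filter on low intronic counts. EEF1B2 and TPT1 did not, with at most 13 and 18 intronic reads in any s4U library. Of the 6, 3 were called lower under improved handling and none higher, where 66.0% of 13154 genes were called, 36.3% higher and 29.7% lower. NPM1, not called at 0.48 (edgeR adjusted p = 0.053), was called higher in 6 of 18 alternatives. Among them were DESeq2 (0.70, DESeq2 adjusted p = 0.000778) and the fit without the low-count filter (0.72, edgeR adjusted p = 0.0136). RACK1 had 54 to 362 intronic reads per drop-out s4U library and 36 to 78 per improved one, a log2 difference of -4.18 (standard error 0.26, edgeR adjusted p = 3.1e-15). EEF2 had 120 to 562 and 62 to 152, a log2 difference of -3.55 (standard error 0.25, adjusted p = 5.44e-14). EEF1D fell by 1.46 (standard error 0.19, adjusted p = 6.79e-08). These differences are relative to the intronic total, which was a larger share of the reads under improved handling. Scaled by the exonic totals and factors, 9780 of 13392 genes were called higher and 676 lower, and the median log2 difference of all genes was 2.29. On that scale 6 of 8 members were called. RACK1 and EEF2 were still called lower, at -2.20 and -1.57. NPM1 at 2.40 and PABPC1 at 2.12 stood near the median, and EEF1A1 at 1.45 (edgeR adjusted p = 0.000751) and EEF1D at 0.43 (edgeR adjusted p = 0.125) stood below it. EEF1B2, which passed the filter there, was called at 1.46 (edgeR adjusted p = 0.0277), and TPT1 was not, at 1.68 (edgeR adjusted p = 0.0637).

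The converted share of intronic reads was far higher than that of exonic reads in most members under improved handling. Pooled over the 6 s4U libraries, 90.5% of 927 intronic reads of NPM1 were converted (95% Wilson interval 88.4% to 92.2%), and 82.0% of 722 reads of PABPC1 (79.0% to 84.6%). For EEF1A1 the share was 65.5% of 168 reads (58.0% to 72.2%), for EEF1D 55.8% of 699 (52.1% to 59.4%), and for RACK1 54.8% of 310 (49.3% to 60.3%). EEF2 was lowest among the 6 members with enough reads, at 38.1% of 688 (34.5% to 41.8%), where the intronic reads of all genes had a mean of 75.1% ± 7.07 (SD, n = 6). Intervals cover counting error only.

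Under drop-out handling the intronic converted shares were lower in each of these 6 members. They were 67.7% of 93 reads for NPM1 (57.7% to 76.4%), 42.2% of 90 for PABPC1 (32.5% to 52.5%) and 36.9% of 290 for EEF1D (31.5% to 42.6%). EEF2 had 15.4% of 1307 reads (13.5% to 17.4%), RACK1 13.1% of 910 (11.04% to 15.4%) and EEF1A1 11.1% of 36 (4.41% to 25.3%), against a mean over all genes of 32.6% ± 5.85 (SD, n = 6). The 2 members with the most intronic reads, EEF2 and RACK1, thus had a low converted share among them. In unlabelled drop-out libraries 10.0% of the 589 intronic reads of EEF2 carried a T-to-C mismatch (7.85% to 12.7%), against 2.45% of 327 for RACK1 (1.24% to 4.75%) and a mean of 4.17% over all genes, so that the s4U value of EEF2 stood little above its own background there.

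The same 12 s4U libraries were also deposited as aligned with STAR and with HISAT2, which allowed a check of how far the members' counts depend on the aligner. Because the reads are the same, the spread here is between libraries in the effect of the aligner, and small differences pass the test. With STAR, 8 of 8 members were called, 3 higher and 5 lower, where 21.1% of 12149 genes were called, 11.9% higher and 9.14% lower. The difference was large in 3 of them. EEF1A1 gained 1.42 on the log2 scale (standard error 0.02, edgeR adjusted p = 4.08e-20), going from 470 ± 70.9 to 1209 ± 132 RPM (exonic reads scaled by the library total alone) in drop-out libraries and from 1393 ± 104 to 3622 ± 173 in improved ones (SD, n = 6 each). NPM1 gained 0.84 (standard error 0.02) and EEF1B2 0.69 (standard error 0.03), and all 3 stood at or above the 99.3th percentile of the difference.

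The other 5 members, EEF1D, EEF2, RACK1, PABPC1 and TPT1, were lower with STAR by 0.10 to 0.16 on the log2 scale. HISAT2 gave the same 3 large gains, of 1.57 for EEF1A1, 0.89 for NPM1 and 0.84 for EEF1B2. In all, 6 of 8 members were called with HISAT2, where 31.2% of 12053 genes were called (17.8% higher, 13.4% lower), and EEF2 and PABPC1 were not, at -0.07 (edgeR adjusted p = 0.102) and -0.05 (adjusted p = 0.0838). RefSeq lists 50 pseudogenes named after EEF1A1, 50 after NPM1, 14 after TPT1, 13 after PABPC1, 8 after each of EEF1B2, EEF1D and EEF1G, 3 after RACK1 and none after EEF2. The part of such copies in the aligner difference was not tested. The levels of EEF1A1, NPM1 and EEF1B2 are uncertain by the amounts given. For handling in s4U libraries, the STAR alignment gave log2 differences of -2.12 for EEF2, -1.86 for EEF1D, -1.81 for RACK1, 1.31 for TPT1, 1.40 for NPM1 and 1.001 for EEF1A1. It gave 0.53 for EEF1B2 (edgeR adjusted p = 0.00746) and 0.03 for PABPC1 (edgeR adjusted p = 0.815). In that fit 5932 of 12591 genes were called higher and 4367 lower, and whether the handling difference itself differed between aligners was not tested.

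**Figure D4:**
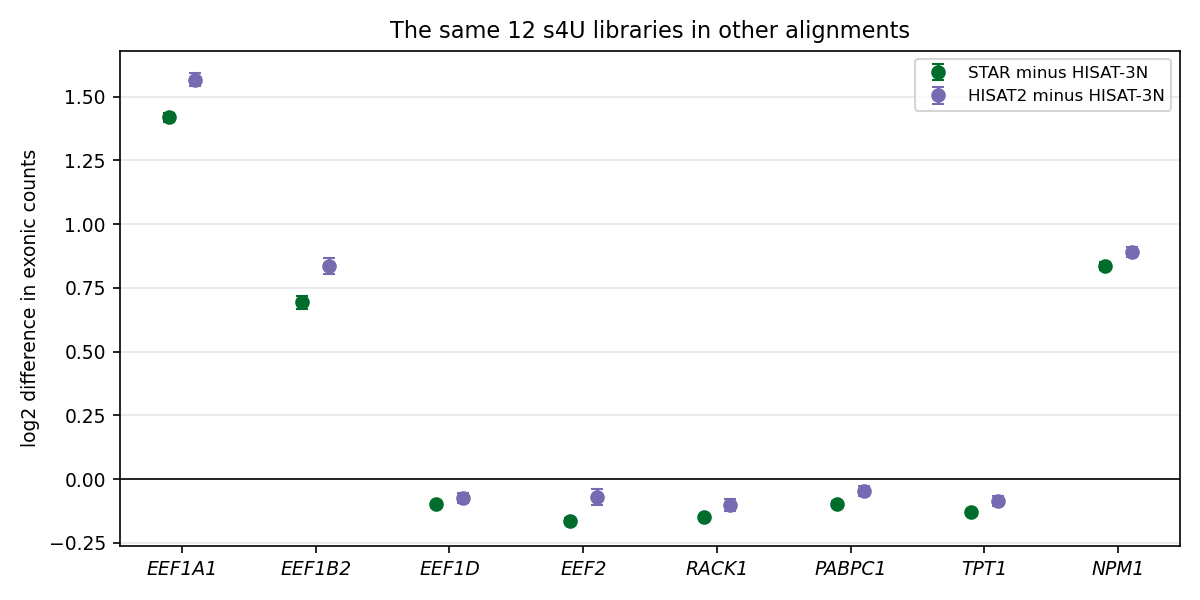
Log2 difference in exonic counts of the same 12 s4U libraries between alignments, STAR or HISAT2 minus HISAT-3N, with standard errors as bars. EEF1A1, NPM1 and EEF1B2 lie between 0.69 and 1.57, and the other 5 members between -0.16 and -0.05.

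The converted share moved with the aligner as well. NPM1 had means of 9.99% ± 2.86 and 15.9% ± 3.09 under drop-out and improved handling with HISAT-3N, 6.35% ± 1.68 and 9.35% ± 1.40 with STAR, and 5.55% ± 1.52 and 7.42% ± 0.948 with HISAT2 (SD, n = 6 each). EEF1A1 had 6.25% ± 0.917 with HISAT-3N, 6.22% ± 0.790 with STAR and 5.16% ± 0.432 with HISAT2 under improved handling (SD, n = 6 each), while its count differed as given above. Its mismatch rate per T in the unlabelled improved libraries was 0.0419% to 0.0567% with HISAT-3N and 0.0647% to 0.106% with STAR. EEF2 had 7.68% ± 0.839 with HISAT-3N, 7.41% ± 0.794 with STAR and 6.53% ± 0.750 with HISAT2 under improved handling.

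A mixture of unconverted and converted reads, fitted to mismatch numbers of single reads against the rate in the matching unlabelled library, gave an estimate of the new share of each mRNA. Over all exonic reads this share was 13.5% ± 2.84 under drop-out handling and 27.4% ± 2.79 under improved handling (SD, n = 6 each). The members lay below it under improved handling. EEF1D went from 1.73% ± 0.583 to 9.60% ± 1.72, RACK1 from 1.96% ± 0.414 to 6.46% ± 0.696, EEF2 from 2.54% ± 0.697 to 4.40% ± 0.440 and PABPC1 from 2.56% ± 1.54 to 5.61% ± 0.778.

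NPM1 went from 6.82% ± 3.42 to 11.3% ± 2.93, with overlap. EEF1A1 was at 4.53% ± 2.12 and 4.50% ± 1.17, EEF1B2 at 7.29% ± 3.48 and 6.17% ± 1.37, and TPT1 at 11.5% ± 3.73 and 8.43% ± 1.27. No test was run on these estimates, and the last 3 members did not separate by handling. With STAR the estimates went from 2.27% ± 0.598 to 3.96% ± 0.435 for EEF2 and from 3.75% ± 1.80 to 6.24% ± 1.57 for NPM1. Under improved handling EEF1D, at 9.41% ± 1.20, and TPT1, at 8.16% ± 1.08, stood above NPM1 with STAR. EEF1A1 was at 2.50% ± 1.47 and 2.79% ± 0.842 and EEF1B2 at 4.50% ± 2.20 and 5.14% ± 1.11 with STAR, so that the order of their means by handling was opposite to that with HISAT-3N (SD, n = 6 each). Drop-out estimates of EEF1A1, EEF1B2 and NPM1, and improved estimates of EEF1A1 and NPM1, were thus over 1.5 times lower with STAR.

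The authors' deposited table gives a first-order degradation rate constant per transcript and handling, with no time unit stated. It also gives a log2 fold change of improved over drop-out handling with an adjusted p. This value is called the log2 ratio here. It departed from that of the listed constants by up to 0.352, 0.289 and 0.350 for NaIO4 and TFEA, OsO4 and NH3, and iodoacetamide. In the authors' deposited table, 8 members were listed for NaIO4 and TFEA and 7 for each of the other chemistries, where EEF1D was missing, and EEF1G was missing in all 3. At the authors' adjusted p under 0.05, 2 of 8 members were higher and 1 lower for NaIO4 and TFEA, 3 and 1 of 7 for OsO4 and NH3, and 2 and 1 of 7 for iodoacetamide. The authors' deposited table called 53.3%, 48.6% and 50.3% of all transcripts, 52.6%, 48.1% and 48.9% as higher and 0.679%, 0.442% and 1.44% as lower.

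EEF2 was the member called lower in each chemistry. In the authors' deposited table its rate constant went from 0.0803 to 0.0575 for NaIO4 and TFEA (log2 ratio -0.48, adjusted p = 0.0211), from 0.0592 to 0.0278 for OsO4 and NH3 (-1.10, adjusted p = 0.000147) and from 0.0666 to 0.0388 for iodoacetamide (-0.78, adjusted p = 0.000878). A lower constant, called or not, occurred for 7.06%, 7.12% and 8.56% of transcripts in the authors' deposited table. TPT1 was lower too in each chemistry of the authors' deposited table, at -0.49, -0.36 and -0.44, but was not called (adjusted p = 0.251, 0.445 and 0.356).

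RACK1 and NPM1 were called higher in all 3. The authors' deposited table gave RACK1 log2 ratios of 1.46, 1.64 and 1.47 (adjusted p = 1.41e-07, 1.06e-06 and 8.25e-07) and NPM1 1.62, 0.99 and 1.67 (adjusted p = 0.000496, 0.029 and 0.00108), for NaIO4 and TFEA, OsO4 and NH3, and iodoacetamide in that order. EEF1A1 was called for OsO4 and NH3 alone, at 1.02 (adjusted p = 0.0163), and stood at 0.58 and 0.49 in the other chemistries of the authors' deposited table. PABPC1 (0.69, 0.28 and 0.87) and EEF1B2 (0.46, 1.34 and 0.87) were not called in the authors' deposited table, nor was EEF1D, at 1.54 with an adjusted p of 0.085 in its single listing. The median log2 ratio over all transcripts of the authors' deposited table was 1.18, 1.19 and 1.14.

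**Figure D5:**
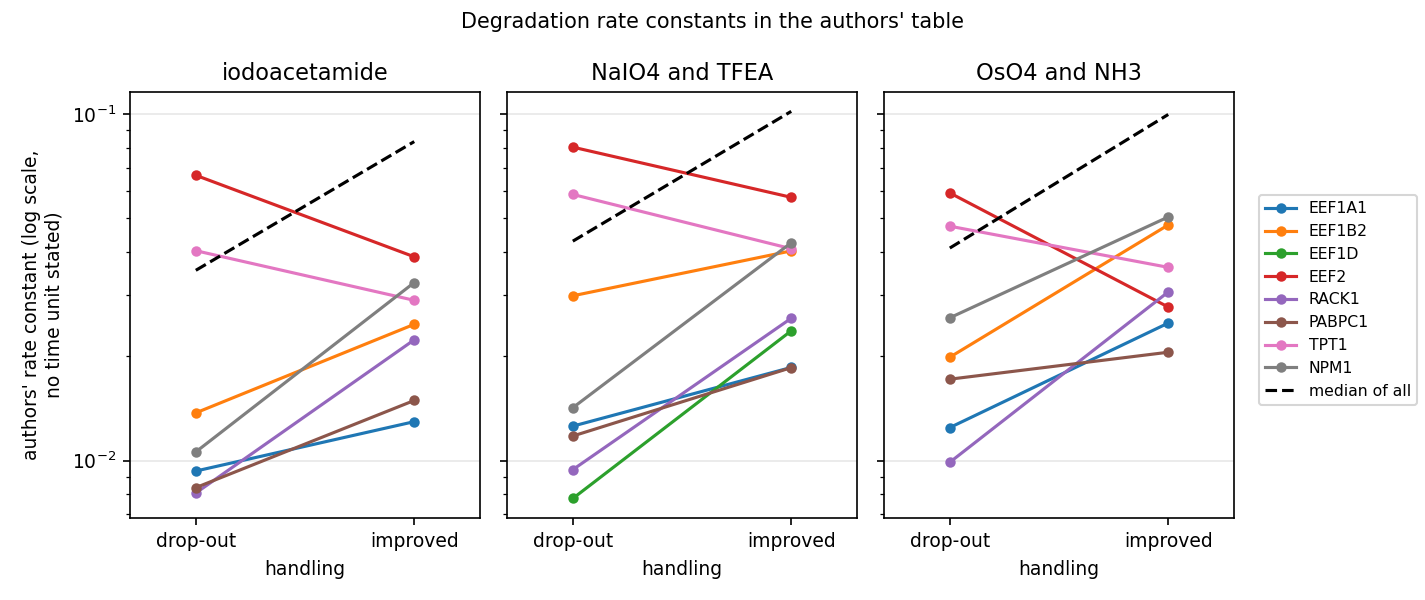
Degradation rate constants of the members in the authors' deposited table, on a log axis without a stated time unit, under drop-out and improved handling, 1 panel per chemistry. The dashed line is the median of all transcripts, and EEF1D is listed for NaIO4 and TFEA alone. The lines of EEF2 and TPT1 slope down in each panel, and those of the others and of the median slope up.

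Companion genes of the pathway could be matched by symbol in the authors' deposited table alone. Of 13 other TOP mRNAs, 12 were listed, and 9, 9 and 8 of them were called higher in the 3 chemistries and none lower in the authors' deposited table, where 52.6%, 48.1% and 48.9% of all transcripts were called higher and 0.679%, 0.442% and 1.44% lower. Their median log2 ratios there were 1.72, 1.46 and 1.55. HNRNPA1, an hnRNP protein of splicing and mRNA export, had the highest ratio of the list in each chemistry of the authors' deposited table, at 2.79, 3.19 and 3.61. The initiation factor subunit EIF3F gave 2.64, 2.56 and 2.93 in the authors' deposited table. The subunit EIF3H was lowest by the median over chemistries, at -0.44, 0.84 and 0.29 in the authors' deposited table, and was not called. EIF3A, at 0.58, 0.49 and 0.83 in the authors' deposited table, was called for iodoacetamide alone.

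Of 14 ribosomal protein mRNAs, 13 were listed, with 10, 12 and 8 called higher and none lower in the authors' deposited table, against the same shares of all transcripts, and median log2 ratios of 0.98, 1.13 and 0.91. RPSA, a small-subunit protein, stood highest in the authors' deposited table at 3.23, 4.36 and 2.54, with RPS3 next by the median over chemistries, at 1.97, 2.19 and 2.26. The stalk protein RPLP2 was not called in the authors' deposited table, at 0.20, 0.40 and 0.34, and RPL32 was at -0.17, 0.996 and 0.80, called for OsO4 and NH3 alone. Of 17 other elongation-related genes only EEF1A2, EIF5A and EEF2K were listed. EEF2K, the kinase that inhibits EEF2, was called higher for NaIO4 and TFEA (1.66) and iodoacetamide (2.33) in the authors' deposited table, but not for OsO4 and NH3 (1.03, adjusted p = 0.112). EEF1A2, at -0.89, 0.01 and 0.51, and EIF5A, at 0.22, 0.50 and 0.01, were not called in any chemistry of the authors' deposited table. TUFM, the mitochondrial counterpart of EEF1A1, was the single listed gene of 4 mitochondrial elongation factors, at 0.95, 1.56 and 0.86, called for OsO4 and NH3 in the authors' deposited table (adjusted p = 0.00726).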

How the data were processed

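Total RNA was extracted, recoded chemically and made into stranded libraries, per the labels' protocols. The submitters' processing notes name cutadapt, HISAT, HISAT2, STAR, Picard, HTSeq and DESeq2 without versions, and the build GRCh38. The authors deposited counts of reads by library, aligner, settings code, gene, intronic flag and number of T-to-C mismatches and T positions. The settings codes are not defined in the sources used here. The other numbers in that deposited table, mismatches and T positions, are whole. The authors also deposited rate constants per handling, with no time unit, a log2 fold change between the handlings and its adjusted p-value. The members and the companion lists were chosen with earlier results of these data known. The naming rule took every member in each comparison, and the 2 highest and 2 lowest genes of each companion list (by the median over chemistries, a choice made after the values were seen).

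From 28 samples, 18 entered (the chemistries run under both handlings), and 10 were not analysed here. Exonic HISAT-3N counts (settings D) were summed per gene, filtered with filterByExpr, scaled by TMM and tested with edgeR 4.0.16 in R 4.3.3 by the quasi-likelihood method over 12 groups. For counts, one fit over all 18 libraries gave the dispersion, and contrasts were averaged over chemistries. That dispersion rests on the s4U groups of 2 libraries, because unlabelled groups of 1 library add no residual spread. The same holds for the tests of s4U against unlabelled libraries. Converted shares were tested as converted against unconverted reads in a design that holds each library, for genes reaching 50 exonic reads in every s4U library. Standard errors are the difference over the root of F. Genes passed at an adjusted p under 0.05 (Benjamini-Hochberg, two-sided). The fits of counts and shares and the mixture estimate were tested on simulated data. The simulated counts had far fewer changed genes than these libraries, with rises and falls balanced, so they do not check the scaling. The simulated mixtures had higher new shares than several members under drop-out handling, and more reads than most members, so they do not check such low estimates. Alternatives were DESeq2, other scalings, filters, aligners, thresholds, replicate blocks (random ones with limma 3.58.1) and libraries left out. Reads listed with more than 1 gene entered no test. Promoter sequences are RefSeq's.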

Additional observations from a re-analysis of the deposited data

Results flagged for a closer look

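EEF1G gave a signal outside the comparisons, in reads listed with 2 gene identifiers. Their converted share was 5.81% ± 0.731 in s4U libraries of improved handling (4.58% to 6.67%, SD, n = 6), above the unlabelled libraries at 2.69% ± 0.629 (SD, n = 3). Under drop-out handling it was 4.23% ± 0.508 in s4U and 3.60% ± 0.930 in unlabelled libraries. Neither difference was tested.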

How the results depend on the processing

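The counts of members called kept within 1.5 times of their value in all alternatives except 1 for a chemistry pair, given with the random block, and those for intronic reads, where 3 of 6 members became 6 of 8 with exonic factors and totals and 5 of 8 with STAR. Over all genes, 9780 of 13392 were higher and 676 lower in the first of these, and 5062 of 14747 higher and 4008 lower with STAR. Leaving out 1 library gave 6 to 7 members for handling in s4U libraries (77.6% to 80.9% of all genes), 5 to 7 in unlabelled ones (64.3% to 74.0%), 3 to 4 for intronic reads (60.2% to 65.2%), 5 to 5 for the converted share (74.8% to 85.9%), 8 to 8 for STAR (18.7% to 20.2%), 6 to 8 for HISAT2 (27.2% to 29.8%), and 0 to 0 for the label effects, their difference and the chemistries (at most 1.67% of genes). The replicate block gave 7 and 7 members for handling (80.7% and 72.4% of genes), 3 for intronic reads (65.6%) and 5 for the converted share (85.7%), and changed no member's call. Same-numbered libraries deviated together across chemistries under drop-out handling (r of 0.42 to 0.49 over genes) but not under improved handling (0.04 to 0.06) or between handlings (-0.01 to 0.04), so the numbers do not pair the handlings. A random block per handling and number, chosen after seeing this, gave 7, 7 and 3 (78.5%, 68.0% and 66.0% of genes), 5 for the converted share by handling (69.2%), and 1 (NPM1) for OsO4 and NH3 against NaIO4 and TFEA, where 30 of 1992 genes were called. For OsO4 and NH3 against iodoacetamide that fit, limma on weighted log2 odds in place of edgeR, called 34 genes and no member, and it called 0 genes for the third pair (102 at an unadjusted p under 0.05).

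Over all comparisons, the sign of a member's value changed in 68 of 800 alternatives and in 52 of 1272 values with 1 library left out. For the converted share by handling, the log2 odds ratio ran from -0.31 to 0.29 for EEF1A1 and from -0.15 to 0.36 for EEF1B2. For handling in counts, signs turned with intronic reads included for EEF1B2 (-0.27) and PABPC1 (-0.62) in s4U libraries and EEF1A1 (-0.11) in unlabelled ones. With library totals alone the sign turned for PABPC1 (0.27) in unlabelled libraries. With intronic reads included PABPC1 was called lower in unlabelled libraries, at -0.79, and EEF1B2 was not called there, at 0.05 (edgeR adjusted p = 0.898). With exonic factors, intronic EEF1A1 was at 1.45 and EEF1D at 0.43. The cause was not tested. EEF1B2 and TPT1 had too few intronic reads to pass the filter in the HISAT-3N fit scaled by intronic totals, and were tested in the other intronic fits that kept them.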

Other observations

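EEF2 gave readouts that differ in direction between the deposited table and the reads. In the authors' deposited table its rate constant was lower under improved handling in each chemistry, while its converted share rose from 5.39% ± 0.724 to 7.68% ± 0.839 with HISAT-3N, from 5.39% ± 0.713 to 7.41% ± 0.794 with STAR and from 4.77% ± 0.613 to 6.53% ± 0.750 with HISAT2 (SD, n = 6 each). EEF2 and RACK1 had like converted shares under drop-out handling, 5.39% ± 0.724 and 4.91% ± 0.615, and like unlabelled shares, 3.55% ± 0.345 and 3.36% ± 0.586. Their T positions per read differed, at 29.5 and 35.7 in drop-out s4U libraries. Their rate constants for NaIO4 and TFEA under drop-out handling in the authors' deposited table were 0.0803 and 0.00942.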
